A study of Sus scrofa with 26 samples.

Results

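Cell cycle and proliferation genes were followed in the subcutaneous adipose tissue (SCAT) of growing pigs kept at thermoneutrality or under heat stress. The list held 50 genes, 19 that act in S phase or at its onset and 31 that act in mitosis. A probe of the microarray was assigned to a gene when the RefSeq accession, the gene symbol or the free-text description of the probe named that gene. Descriptions were read by hand and named 14 spots, so nearly all genes of the array were named without them. In this way 38 of the 50 genes had at least 1 probe, out of 11795 genes named on the whole array, and 34 had a probe bright enough to be tested (11 of S phase and 23 of mitosis). No probe was found for CCNE2, CDT1, MCM4, MCM5, MCM7, TYMS, TK1, CCNA2, CENPA, NDC80, BUB1B and MAD2L1. The probes of RRM1, CENPE, NUF2 and FOXM1 were not well above background on enough arrays.

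The study compared castrated male pigs of the Creole breed, of the Large White (LW) breed and of their cross (F1). Thermoneutral (TN) pigs were kept at 24 °C and slaughtered before the temperature was raised, and heat-stressed (HS) pigs were slaughtered after the heat, which lasted 5 days by the series text and 4 or 5 days by the methods of the study, at 30 °C by the sample titles and 32 °C by the series text. RNA of 1 pig was hybridised to each of 26 one-colour arrays, with 3 TN and 5 HS pigs in the Creole breed, 4 TN and 5 HS pigs in the F1 cross, and 4 TN and 5 HS pigs in the LW breed. Temperature, day of slaughter, age at slaughter and feed intake, which the study reports as lower under heat, cannot be told apart in this design. Between 41314 and 46185 probes were well above background on an array, no spot was saturated, and the 11 measured adipocyte markers, such as the adipokine gene ADIPOQ and the lipid droplet coat gene PLIN1, were well above background on all 26 arrays.

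A dividing cell copies its DNA in S phase and separates the copies in mitosis. The E2F factors switch on the S phase genes when the retinoblastoma proteins release them, and the FOXM1 and B-MYB factors, acting with the MuvB proteins, switch on the mitosis genes later in the cycle. Mature adipocytes do not divide, so in fat depots these transcripts are usually credited to progenitors, endothelial cells, immune cells and other stromal cells. In whole tissue, fewer cells in cycle and less RNA per cycling cell cannot be told apart.

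The probes that carried the main results are 60 bases long, and those shown here are the probes of CDK1 and TOP2A, genes with large changes, the probes of KIF23, which gave different answers, and the probes named or labelled MKI67, whose assignment differed between the columns of the files. They are written in lower case, 5′ to 3′, as printed in the annotation of the array, and their genomic position is not given there.
CDK1 probe (A_72_P440916): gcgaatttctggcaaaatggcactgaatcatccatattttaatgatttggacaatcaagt
TOP2A probe (A_72_P298629): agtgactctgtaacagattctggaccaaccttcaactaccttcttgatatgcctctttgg
KIF23 probe named by symbol (O13382): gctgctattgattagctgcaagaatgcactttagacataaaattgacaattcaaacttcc
KIF23 probe named by description (A_72_P409508): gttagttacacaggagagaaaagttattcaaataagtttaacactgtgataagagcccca
MKI67 probe named by symbol (O7450): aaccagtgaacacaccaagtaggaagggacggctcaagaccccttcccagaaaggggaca
MKI67 probe named by description (A_72_P204882): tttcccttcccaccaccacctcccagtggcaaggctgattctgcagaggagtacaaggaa
NIFK probe labelled MKI67 in the files (A_72_P441843): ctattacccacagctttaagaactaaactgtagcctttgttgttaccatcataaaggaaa

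Levels are log2 values of the quantile-normalized spot intensity, and a change is the difference of HS minus TN in log2 units with breed in the model, given with its standard error (SE). Each gene was represented by its brightest tested probe. Adjusted p-values are Benjamini-Hochberg values from limma over all 44703 tested probes, and a gene was called when its adjusted p-value was below 0.05. Levels of different probes are not comparable with each other. The size of a change also depended on the processing. Over 12 other settings it ranged from -1.18 to -1.08 for UBE2C, from -1.27 to -0.44 for KIF23 and from -0.61 to -0.23 for PLK1.

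Under heat stress 20 of the 34 measured genes were called lower and none was called higher. Among all 10157 genes tested, 7.65% were called lower and 4.88% higher. With the mean level of red blood cell markers, which was lower in HS pigs, as a covariate, 3 of these 20 genes stayed called. In that fit 0.0886% of all genes tested were called, and the median change was -0.45 for mitosis genes and -0.17 for S phase genes. Without the covariate, mitosis genes made up most of the 20 called genes. There 15 of 23 mitosis genes were called lower, with a median change of -0.46, and 5 of 11 S phase genes, with a median change of -0.25. The median change over all genes tested was -0.005. Changes below 0 were measured for 19 of the 23 mitosis genes and for 10 of the 11 S phase genes. For the median mitosis gene, 14 of the 15 HS arrays lay below the TN mean of their own breed, for the median S phase gene 12, and for the median gene of the array 8. The TN and HS arrays overlapped for each of the 34 genes, and 0.0197% of all genes tested showed no overlap. This share compares all 11 TN with all 15 HS arrays. The share of all genes without overlap within 1 breed was not computed, so the separations within breeds given below stand without it.

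**Figure D1:**
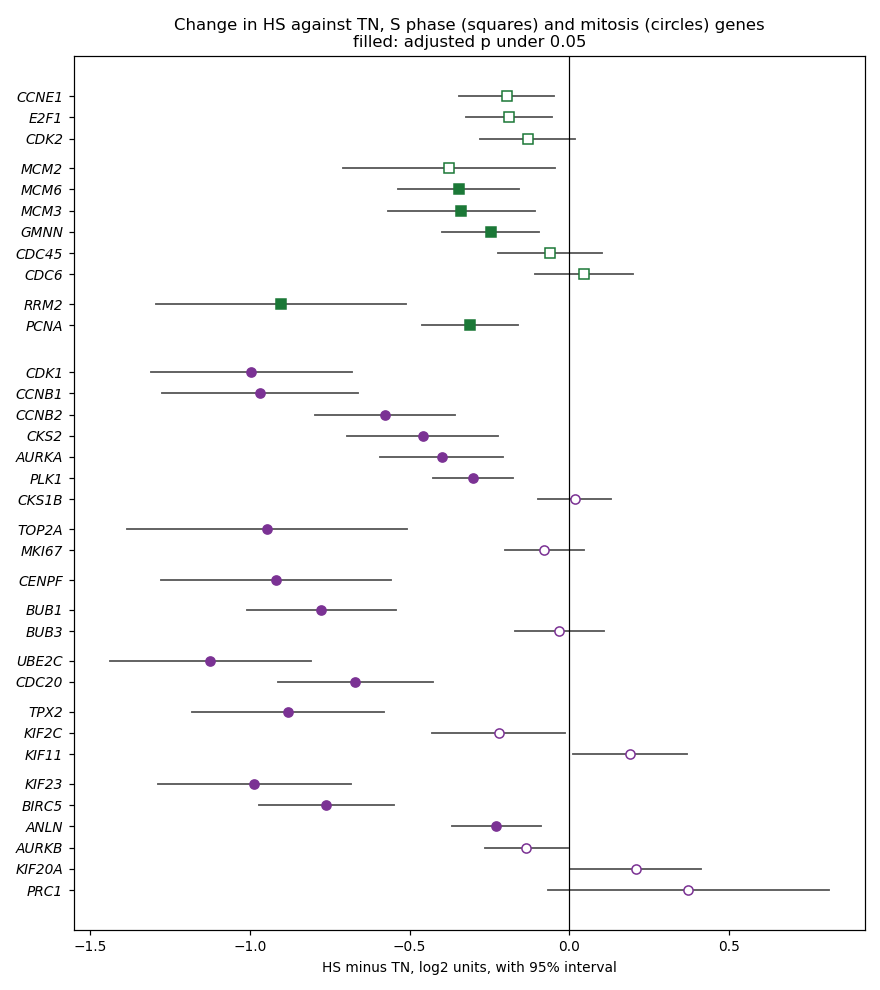
Change in HS against TN pigs for the 34 measured genes, in log2 units on the horizontal axis, with 95% intervals as lines. Squares are the 11 S phase genes and circles the 23 mitosis genes, grouped by role, and filled symbols have an adjusted p-value below 0.05. The 20 filled symbols all lie left of 0, and the changes beyond -0.5 are those of RRM2 and 11 mitosis genes.

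Of the genes that switch a cell from G1 into S phase, none of the 3 measured was called. E2F1, a transcription factor that turns on replication genes, ranged from 7.86 to 8.42 in TN pigs with a median of 8.21, and from 7.79 to 8.27 in HS pigs with a median of 7.98. The 2 ranges overlapped over most of their length, and the change was -0.19 (SE 0.07, adjusted p = 0.0593, limma). In the LW breed all 5 HS pigs (7.79 to 7.95) lay below all 4 TN pigs (8.12 to 8.30), while the F1 pigs of both temperatures spanned about the same range. The change within LW was not called (-0.31, adjusted p = 0.140). CCNE1, the cyclin E that activates CDK2, had the largest change of this role at -0.20 (SE 0.07, adjusted p = 0.076), with TN pigs from 7.96 to 8.51 and HS pigs from 7.55 to 8.40. Its probe was named by description only, and the CCNE1 probe tied by symbol changed by -0.09 (adjusted p = 0.530). CDK2, the kinase of that pair, changed by -0.13 (adjusted p = 0.254) on its brightest probe and was called lower on its other probe, with a change of -0.25 (adjusted p = 0.0115).

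Among genes that license and fire replication origins, 3 of the 6 measured were called lower. MCM6, a subunit of the ring-shaped replicative helicase, ranged from 8.27 to 8.74 with a median of 8.56 in TN pigs, and from 7.78 to 8.84 with a median of 8.18 in HS pigs. The highest value of all belonged to an HS pig of the LW breed, yet 14 of the 15 HS pigs lay below the TN mean of their breed. The change was -0.35 (SE 0.09, adjusted p = 0.0153). The other MCM6 probe, named by description, changed by -0.06 (adjusted p = 0.659), and the call was lost with the mean of both probes. MCM3, a subunit of the same ring, ranged from 6.48 to 7.03 with a median of 6.73 in TN pigs and from 5.94 to 7.02 with a median of 6.34 in HS pigs. Its change of -0.34 (SE 0.11, adjusted p = 0.0466) sat close to the threshold and was lost in 18 of the 26 fits that left out 1 array. GMNN, the geminin that keeps origins from being licensed again, was lower by a smaller amount (-0.25, adjusted p = 0.0304). MCM2 had a change as large as those of the other helicase subunits (-0.38), but its HS arrays spread from 6.62 to 8.53 and the adjusted p-value was 0.129. The origin firing factor CDC45 and the licensing factor CDC6 had changes of -0.06 and 0.05 (adjusted p = 0.661 and 0.733). The other CDC6 probe, named by description, changed by -0.29 (adjusted p = 0.155).

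Both measured genes of DNA synthesis and nucleotide supply were called lower. RRM2, the regulated subunit of the enzyme that makes deoxynucleotides, ranged from 8.90 to 9.80 with a median of 9.40 in TN pigs, and from 7.66 to 9.42 with a median of 8.22 in HS pigs. In the Creole breed the TN pigs measured 9.40, 9.40 and 9.80 and the HS pigs 7.87, 9.20, 8.03, 8.22 and 7.72, so that the 2 groups did not overlap there. The change within Creole was not called (adjusted p = 0.117). The change over the breeds was -0.90 (SE 0.19, adjusted p = 0.00313), a level 1.87-fold lower and the largest of the S phase genes measured. PCNA, the sliding clamp of the DNA polymerases, had a more even and smaller change. It ranged from 7.54 to 8.20 with a median of 7.70 in TN pigs and from 7.09 to 7.81 with a median of 7.47 in HS pigs, a change of -0.31 (SE 0.07, adjusted p = 0.00701) that was shared by 14 of the 15 HS pigs.

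The genes of mitotic entry were called lower in 6 of 7 cases. CDK1, the kinase that drives cells into mitosis, measured 8.95, 8.48 and 9.18 in the Creole TN pigs and 7.63, 8.27, 7.31, 7.45 and 7.42 in the Creole HS pigs. In the F1 cross the TN pigs measured 8.90, 9.02, 8.39 and 8.60 and the HS pigs 8.13, 7.14, 7.34, 7.66 and 7.26. In the LW breed the TN pigs measured 8.58, 8.46, 8.74 and 8.03 and the HS pigs 8.43, 7.55, 8.44, 7.46 and 7.61. The HS pigs thus lay below every TN pig in Creole and F1, while in LW 2 HS pigs reached the TN levels. The change was called within F1 (adjusted p = 0.0323) but not within Creole (adjusted p = 0.0663). The change over the breeds was -0.995 (SE 0.15, 95% interval -1.31 to -0.68, adjusted p = 0.000296), a level 1.99-fold lower, and all 15 HS pigs lay below the TN mean of their breed. A further tested CDK1 probe changed by -1.05.

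CCNB1, the cyclin B that activates CDK1, followed the same course. It ranged from 8.17 to 9.37 with a median of 8.91 in TN pigs and from 7.27 to 8.55 with a median of 7.72 in HS pigs, and 11 of the 15 HS pigs lay below the lowest TN pig. Its change was -0.97 (SE 0.15, adjusted p = 0.000297). The other B-type cyclin, CCNB2, changed by -0.58 (adjusted p = 0.00113) and by -0.28 on its other probe (adjusted p = 0.00760). The CDK1-binding protein CKS2, the mitotic kinase AURKA and the mitotic kinase PLK1 were called lower, with changes of -0.46, -0.40 and -0.30. None of the 3 other AURKA probes was called (changes of -0.22, -0.22 and -0.02), and AURKA lost its call with the mean of all its probes. CKS1B, the close relative of CKS2 that also serves in the destruction of the inhibitor p27, was not called, with a change of 0.02 (95% interval -0.10 to 0.13) that stood on either side of 0 in other settings.

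The 2 genes of chromosome structure gave different answers. TOP2A, the topoisomerase that untangles sister chromatids, measured 9.92, 9.87 and 10.23 in the Creole TN pigs against 8.41, 9.51, 7.92, 8.22 and 8.32 in the Creole HS pigs. The F1 pigs measured 9.93, 10.05, 9.56 and 9.17 at TN against 9.49, 7.91, 8.15, 8.63 and 8.04 at HS. The LW pigs measured 9.73, 9.26, 9.49 and 8.97 at TN against 9.73, 9.27, 9.62, 8.77 and 8.62 at HS. Creole groups did not overlap, F1 groups overlapped through 1 HS pig, and LW groups covered nearly the same range. The change within Creole was not called (adjusted p = 0.0779). The change over the breeds was -0.95 (SE 0.21, adjusted p = 0.00516), and the dimmer TOP2A probe gave -1.02.

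MKI67 encodes the Ki-67 protein that coats mitotic chromosomes and is the usual stain for dividing cells. Its brightest probe ranged from 7.80 to 8.30 with a median of 8.01 in TN pigs and from 7.80 to 8.27 with a median of 7.94 in HS pigs, and the groups overlapped almost fully. The change was -0.08 (SE 0.06, 95% interval -0.20 to 0.05, adjusted p = 0.430). This probe was tied to Ki-67 only by a description that names the dog protein, and the other tested probe, tied to it by its symbol, changed by -0.02 (adjusted p = 0.954). A further 2 probes carry the symbol MKI67 in the files, but their accession belongs to NIFK, a nucleolar partner of Ki-67. They were counted as NIFK and changed by -0.16 and -0.12 (adjusted p = 0.132 and 0.266). After the mean of each group was removed, these 2 probes and the probe labelled MKI67IP, with the same accession, correlated with each other over the 26 arrays (Pearson r from 0.80 to 0.89), while their r with the Ki-67 probe tied by symbol lay between -0.31 and -0.18. With the Ki-67 probe tied by description, the one that represents MKI67 here, their r lay between 0.41 and 0.52, and the 2 Ki-67 probes had an r of 0.11 with each other. Which transcript the description probe measures was not tested.

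**Figure D2:**
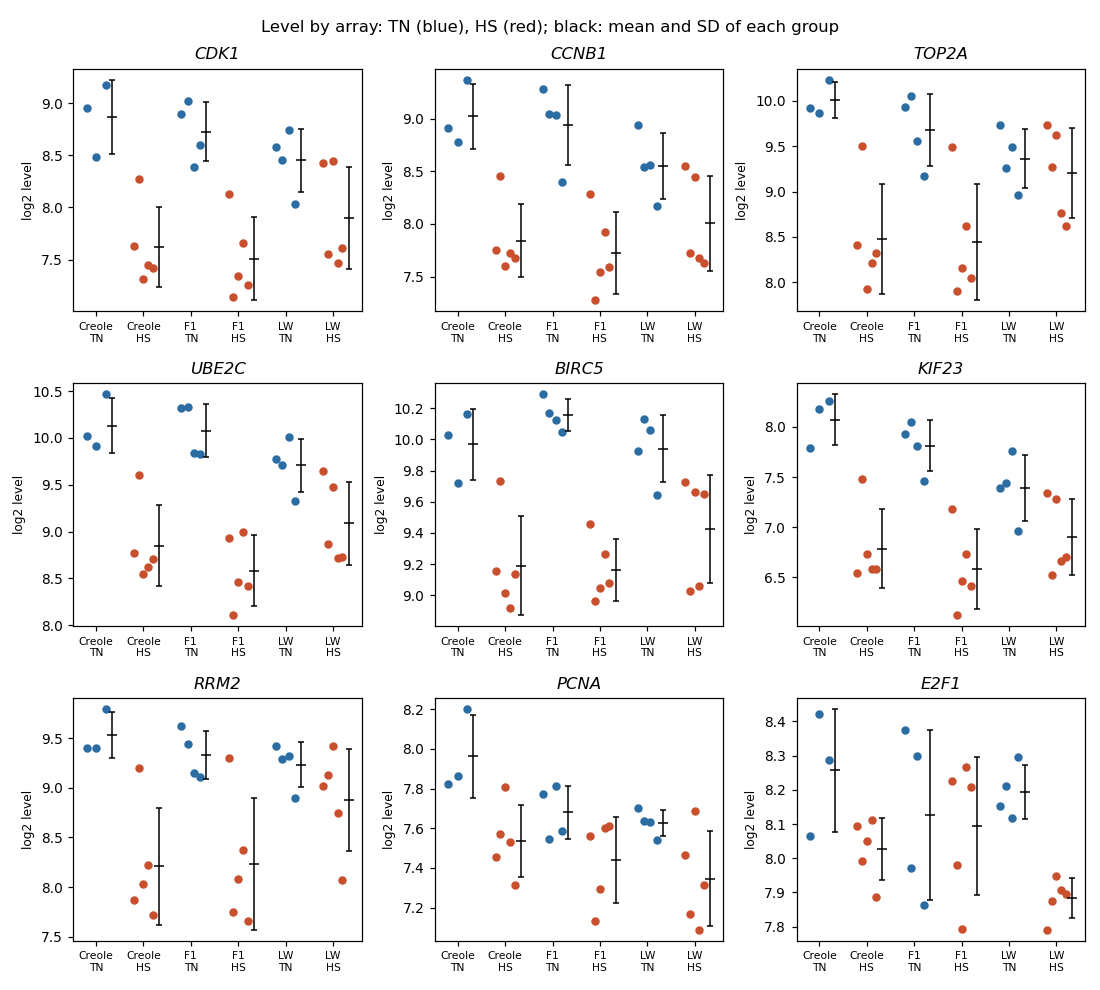
Level by array of 9 genes in log2 units on the vertical axis, in the 6 groups of breed and temperature. Points are pigs, TN in blue and HS in red, and the black mark beside each group is its mean with the SD. CDK1, CCNB1, TOP2A, UBE2C, BIRC5, KIF23 and RRM2 show HS levels mostly below TN levels in Creole and F1, with Creole HS replicate 2 the highest Creole HS pig for each of the 7, while E2F1 overlaps between TN and HS in F1.

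The kinetochore and the checkpoint that watches it were represented by few probes. CENPF, a large protein of the outer kinetochore, ranged from 8.002 to 9.05 with a median of 8.61 in TN pigs and from 6.72 to 8.48 with a median of 7.41 in HS pigs, a change of -0.92 (SE 0.17, adjusted p = 0.00142). Its 3 other probes changed by -0.35 to -0.63, and 2 of them were called. BUB1, a kinase of the spindle checkpoint, ranged from 6.56 to 7.40 with a median of 6.99 in TN pigs and from 5.49 to 6.82 with a median of 6.18 in HS pigs. Its change was -0.78 (SE 0.11, adjusted p = 0.000181), all 15 HS pigs lay below the TN mean of their breed, and 12 lay below every TN pig. BUB3, the checkpoint protein that recruits BUB1 to kinetochores, changed by -0.03 (adjusted p = 0.806). None of its 3 other probes was called, and 1 of them is identical to the brightest.

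Both partners of the anaphase-promoting complex were called lower. UBE2C, the enzyme that passes ubiquitin to this complex, had the largest change of the 34 genes with the processing used here. It measured 10.02, 9.91 and 10.47 in Creole TN pigs and 8.77, 9.60, 8.55, 8.62 and 8.71 in Creole HS pigs. It measured 10.32, 10.33, 9.84 and 9.82 in F1 TN pigs and 8.94, 8.11, 8.46, 9.0 and 8.42 in F1 HS pigs. It measured 9.78, 9.71, 10.01 and 9.33 in LW TN pigs and 9.64, 8.87, 9.48, 8.71 and 8.73 in LW HS pigs. Only LW groups overlapped, through 2 HS pigs, and the change of -1.12 (SE 0.15, 95% interval -1.44 to -0.81, adjusted p = 0.000128) was a level 2.18-fold lower. It was called within F1 (adjusted p = 0.0200) but not within Creole (adjusted p = 0.0533). CDC20, the activator of the complex at anaphase, changed by -0.67 (SE 0.12, adjusted p = 0.000858), from a TN range of 6.56 to 7.56 to an HS range of 5.88 to 6.99, with medians of 6.97 and 6.39.

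Among the spindle proteins TPX2 was called and the motors were not. TPX2, which nucleates microtubules and activates AURKA, ranged from 8.79 to 9.81 with a median of 9.27 in TN pigs and from 7.85 to 9.01 with a median of 8.21 in HS pigs, a change of -0.88 (SE 0.15, adjusted p = 0.000541) shared by all 15 HS pigs. The kinesin KIF11, which pushes the spindle poles apart, changed by 0.19 (adjusted p = 0.154), and the microtubule-depolymerising kinesin KIF2C by -0.22 (adjusted p = 0.157). KIF11 was well above background on 7 of 11 TN and 14 of 15 HS arrays.

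Of the 6 genes of the chromosomal passenger complex and of cytokinesis, 3 were called lower. KIF23, the kinesin that bundles microtubules at the midzone, ranged from 6.96 to 8.25 with a median of 7.78 in TN pigs and from 6.13 to 7.48 with a median of 6.67 in HS pigs, a change of -0.99 (SE 0.15, adjusted p = 0.000221). BIRC5, the survivin of the passenger complex, ranged from 9.65 to 10.29 with a median of 10.06 in TN pigs and from 8.92 to 9.73 with a median of 9.13 in HS pigs, and its change of -0.76 (SE 0.10, adjusted p = 0.000128) was shared by all 15 HS pigs. Its 2 other probes changed by -0.61 and -0.63. ANLN, the anillin of the cleavage furrow, was called with a change of -0.23 (adjusted p = 0.0271). AURKB, the kinase of the passenger complex, depended on the probe, since its brightest probe changed by -0.13 (adjusted p = 0.173) while its 2 other probes were called with changes of -0.52 and -0.38 (adjusted p = 0.0219 and 0.0408). KIF20A and PRC1, a kinesin and a microtubule bundler of the midzone, had changes of 0.21 and 0.37 (adjusted p = 0.179 and 0.273) on probes named by description. The KIF20A probes tied by symbol were well above background on 1 and 2 arrays only and were not tested. The PRC1 probe tied by symbol changed by -0.20 (adjusted p = 0.0977).

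The way in which a probe was tied to its gene went along with its change. Over all 67 tested probes of the 34 genes, 32 were called lower and none higher, against 7.02% of all tested probes called lower and 5.17% higher. The 67 hold 3 pairs of identical probes (of CDC45, BUB3 and CDC20), each counted as 2 probes. In the CDC20 pair 1 probe was tied by symbol and 1 by accession. Probes tied by RefSeq accession were called in 13 of 25 cases, with a median change of -0.35, and probes tied by symbol in 19 of 31 cases, with a median change of -0.30. None of the 11 probes tied only by a description was called, and their median change was -0.06. For KIF23, the 2 probes tied by symbol changed by -0.99 and -0.39 and were called. They were well above background on 26 and 9 arrays. The tested probe tied by description changed by 0.06 (adjusted p = 0.552) and was well above background on 12 arrays. For CDC6, the probe tied by description changed by -0.29 and the one tied by symbol by 0.05, neither of them called. Whether these descriptions name the right transcript was not tested. Without them, 20 of 33 genes were called lower, a choice added after the data were seen.

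**Figure D3:**
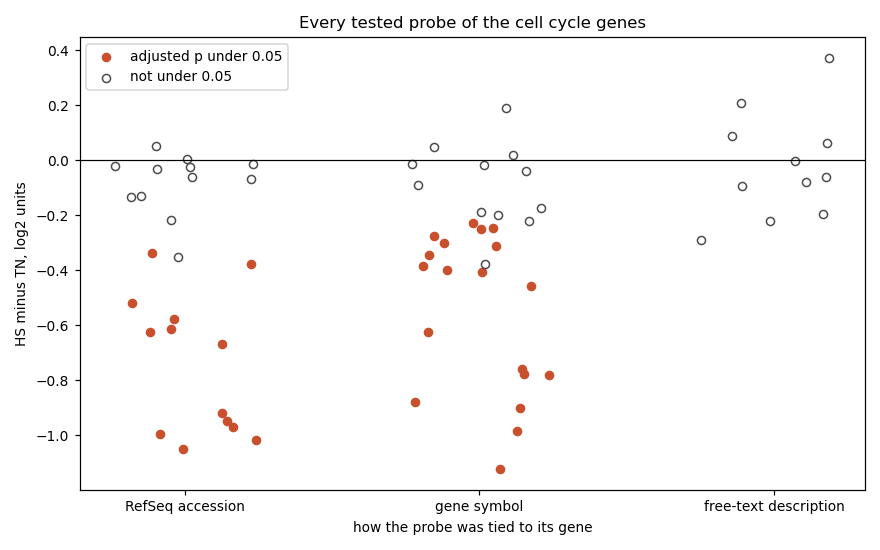
Change in HS against TN pigs, in log2 units on the vertical axis, of the 67 tested probes, grouped by how each was tied to its gene (RefSeq accession, gene symbol or free-text description). Points are probes and filled points have an adjusted p-value below 0.05. Filled points are found in the first 2 columns only, 13 and 19 of them.

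The change was described in each breed with the model of 6 group means. In Creole the median change was -0.60 for mitosis genes and -0.43 for S phase genes, in F1 it was -0.54 and -0.24, and in LW it was -0.22 and -0.16. Within Creole 3 of the 34 genes were called lower (CDC20, TPX2 and KIF23), against 0.0689% of all genes tested. Within F1 10 were called lower, against 0.315%, and all 10 belonged to mitosis. Within LW none was called, against 0.925%, and 11 had an unadjusted p-value below 0.05, as had 1828 of all 10157 genes tested. With slide as a block no gene was called within Creole or F1. Leaving out 1 pig gave 0 to 12 genes within Creole (0 without HS replicate 1 and 12 without HS replicate 2) and 0 to 13 within F1 (0 without TN replicate 1 and 13 without HS replicate 1). TOP2A had the widest spread of the anchor genes, with changes of -1.53 in Creole, -1.24 in F1 and -0.16 in LW. BIRC5 was more even, with -0.78, -0.99 and -0.51.

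These differences between breeds did not pass the test of the difference itself. No gene among the 34 passed the interaction of breed and temperature, and 0% of all genes tested did. The smallest unadjusted p-value was that of CCNB2 (0.00893, adjusted p = 0.897), whose change was -0.80 in Creole, -0.80 in F1 and -0.16 in LW. Altogether 8 of the 34 genes had an unadjusted interaction p-value below 0.05, and 558 of all 10157 genes tested did.

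**Figure D4:**
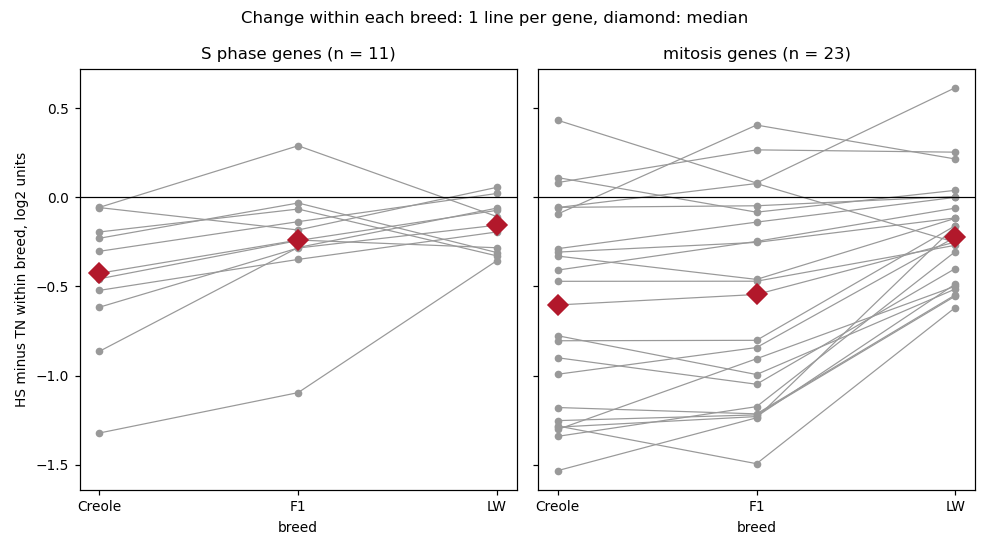
Change in HS against TN pigs within each breed, in log2 units on the vertical axis, with 1 line for each of the 11 S phase genes (left) and 23 mitosis genes (right). Diamonds are medians, which lie at -0.43, -0.24 and -0.16 for S phase genes and at -0.60, -0.54 and -0.22 for mitosis genes in Creole, F1 and LW.

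Between the parental breeds, 5 of the 34 genes were called. Of all 10157 genes tested 1553 were called (15.3%), about the same share. LW pigs were called higher than Creole pigs in 4 of the 34 genes and lower in 1, against 6.68% and 8.61% of all genes tested. PRC1 was higher in LW by 1.11 (adjusted p = 0.00686), KIF2C by 0.46 (adjusted p = 0.0153), KIF11 by 0.33 (adjusted p = 0.0372) and CDC6 by 0.29 (adjusted p = 0.0316), while CCNE1 was lower, with a difference of -0.28 (adjusted p = 0.0356). The PRC1 probe was the one tied by description, its arrays spanned 7.72 to 11.02, and the PRC1 probe tied by symbol differed by 0.07 (adjusted p = 0.699). The other CDC6 probe, tied by description, differed by 0.03 (adjusted p = 0.928). The KIF11 probe was well above background on 21 of the 26 arrays. CDK1, CCNB1, TOP2A and UBE2C differed between the 2 breeds by -0.10 to 0.16, with adjusted p-values from 0.740 to 0.975. Against the midpoint of the 2 parental breeds no gene was called in F1 pigs, nor was any of all genes tested (0%), and no p-value of the 34 genes was below 0.05 before adjustment, against 863 of all 10157 genes tested. The smallest was that of PRC1 (adjusted p = 0.592).

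Animals of 1 group differed widely, and the same animals were high or low for many mitosis genes. Creole HS replicate 2 was the highest of the 5 Creole HS pigs for CDK1, CCNB1, TOP2A, CENPF, BUB1, UBE2C, TPX2, KIF23, BIRC5 and RRM2, and F1 HS replicate 1 was the highest of its group for 9 of these 10 genes. In LW, HS replicates 1 and 3 stood above the 3 other HS pigs for CDK1 and CCNB1. The mean of the 23 mitosis genes, each set to 0 over the 26 arrays, was 0.13 in Creole HS replicate 2 against -0.41 to -0.36 in the 4 other Creole HS pigs and 0.27 to 0.46 in the Creole TN pigs.

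**Figure D5:**
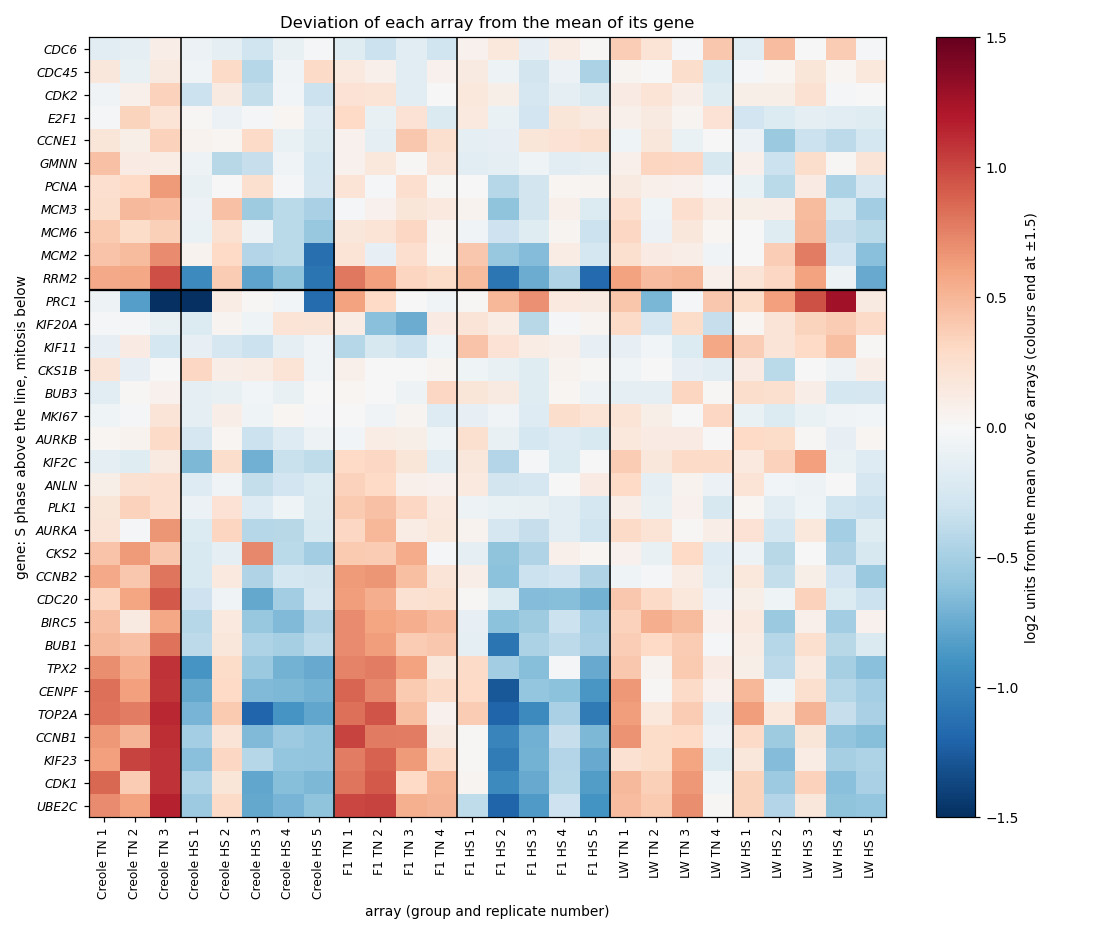
Deviation of each array from the mean of its gene, in log2 units (colour), for the 34 measured genes (rows, S phase above the thick line and mitosis below) and the 26 arrays (columns, by group and replicate number). The genes in the lowest rows, from BUB1 to UBE2C, are high in Creole and F1 TN pigs and low in most HS pigs, and Creole HS 2, F1 HS 1, LW HS 1 and LW HS 3 stand apart from the other HS pigs of their breed.

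The link between single genes was measured on the deviations from the 6 group means over the 26 arrays, for 5 genes against CDK1. CCNB1 followed CDK1 with a Pearson r of 0.88 (permutation p = 3e-05, adjusted p = 7.5e-05) and a Spearman rho of 0.86 (adjusted p = 0.00015), and TOP2A with an r of 0.89 (permutation p = 1e-05, the smallest the permutations can give, adjusted p = 5e-05) and a rho of 0.83. PCNA followed it less closely, with an r of 0.49 (permutation p = 0.0403, adjusted p = 0.0672) and a rho of 0.49 (adjusted p = 0.0544). E2F1 and MKI67 had r of -0.03 and 0.002 and rho of -0.10 and -0.04, with adjusted p-values from 0.784 to 0.992. The Ki-67 probe tied by symbol had an r of 0.39 with CDK1, for which no p-value was computed. Without the 2 arrays farthest from the median of CDK1 the r of the 5 genes became 0.83, 0.84, 0.50, -0.10 and 0.02 in this order. With slide in the model it became 0.89, 0.89, 0.67, 0.08 and 0.14. Single slides held 4 to 7 arrays, so that slide entered as a term.

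Further genes of the same machinery were taken from lists that hold none of the 50 genes. These lists too were chosen with earlier results of these data known, so they are not an independent check. Of all genes tested, 7.65% were called lower and 4.88% higher. Of other mitosis genes, 23 of 40 measured were called lower and none higher, with a median change of -0.29. PTTG1, the securin that holds separase until anaphase, ranged from 8.46 to 9.72 in TN pigs and from 7.48 to 8.69 in HS pigs (change -1.03, SE 0.14, adjusted p = 0.000142), and the mitotic kinase PBK ranged from 8.78 to 9.95 and from 7.42 to 9.28 (-0.99, SE 0.18, adjusted p = 0.00110). PTTG1 was lower than the TN mean of the breed in all 15 HS pigs and PBK in 13. Of other replication genes, 5 of 37 were called lower and none higher, with a median of -0.07. The largest change among them was that of UHRF1, which keeps methylation on copied DNA (-0.42, adjusted p = 0.0152).

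Regulators outside the S phase and mitosis lists were called in both directions. The counts stand beside 7.65% of all genes tested called lower and 4.88% called higher. Of 15 measured brakes of the cell cycle 3 were called lower, among them the repressor E2F8 (-0.44, adjusted p = 0.0215) and the CDK4 and CDK6 inhibitor CDKN2C (-0.27, adjusted p = 0.0387), with a median of -0.04. Of 5 measured DREAM and MuvB subunits 2 were called lower, MYBL2, the B-MYB factor of the mitosis genes (-0.38, adjusted p = 0.0309), and the DNA-binding subunit LIN54 (-0.21, adjusted p = 0.00577). The 8 measured G1 cyclins and kinases, a list that holds MYC, gave 2 lower and 2 higher. MYC, a growth-promoting transcription factor, changed by -0.48 (adjusted p = 0.0272) and the CDK-activating kinase CDK7 by -0.29 (adjusted p = 0.00435), while the G1 kinase CDK6 and the cyclin CCND3 rose by 0.22 and 0.22 (adjusted p = 0.00470 and 0.0166). Of 11 subunits of the anaphase-promoting complex itself, CDC27 alone was called (-0.18, adjusted p = 0.0148), and the median was -0.02. None of the 10 measured p53 target genes was called, 3 had an unadjusted p-value below 0.05, as had 2853 of all 10157 genes tested, and the median was 0.02.

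Markers of other cells were measured on the same arrays. Of the 7 measured red blood cell markers 2 were called lower, the globin gene HBB (-0.85, adjusted p = 0.0110) and EPB42 of the red cell membrane (-0.38, adjusted p = 0.0294), and the mean of the 7 markers ranged from 0.05 to 0.38 in TN pigs and from -0.47 to 0.22 in HS pigs. HBA, HBA1, HBA2 and HBM were not measured, and ALAS2 changed by 0.04 (adjusted p = 0.884). With this mean as a covariate, 3 of the 34 genes stayed called (UBE2C, BIRC5 and CDC20), while over all probes the calls went from 5447 to 42. The median change was then -0.45 for mitosis genes, against -0.46 without the covariate, and -0.17 for S phase genes, against -0.25. CDK1 changed by -1.04 (SE 0.22, adjusted p = 0.0561) in that fit, TOP2A by -1.09 (SE 0.30, adjusted p = 0.146), PCNA by -0.17 (SE 0.09, adjusted p = 0.532) and E2F1 by -0.01 (SE 0.08, adjusted p = 0.986).

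Fibroblast and adipocyte progenitor markers went the other way, with 5 of 14 called higher and a median of 0.25, and their mean ranged from -0.78 to 0.17 in TN pigs and from -0.19 to 0.48 in HS pigs. One of 12 macrophage markers was called higher (CD5L, 0.78, adjusted p = 0.00309), with a median of 0.17 and means from -0.60 to 0.29 in TN pigs and -0.34 to 0.55 in HS pigs. None of 9 T cell markers or 6 B and plasma cell markers was called, with smallest adjusted p-values of 0.313 and 0.0740. One of 8 endothelial markers was called lower (CDH5, -0.23, adjusted p = 0.0254), and 1 of 11 adipocyte markers was called higher (ADIPOQ, 0.16, adjusted p = 0.0384). One of 7 mast cell and granulocyte markers was called higher (MS4A2, 0.27, adjusted p = 0.0397), and none of 12 skeletal muscle or 6 keratinocyte markers was called, although their medians were 0.56 and 0.75. For single markers these counts stand beside the 7.65% and 4.88% of all genes called lower and higher. The part of these cells in the changes of the cell cycle genes was not tested beyond the fits with the red blood cell and macrophage means, and with the macrophage mean 18 of the 20 genes stayed called.

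The arrays came from 5 slides, each of which held TN and HS pigs. The mean of the mitosis genes was lower in HS pigs on every slide, with differences of -0.74, -0.32, -0.39, -0.53 and -0.50, and that of the S phase genes was lower with differences of -0.29, -0.12, -0.24, -0.37 and -0.38. With slide as a block all 20 genes stayed called and E2F1 joined them.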

How the data were processed

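Subcutaneous adipose tissue RNA of 26 pigs was hybridised to one-colour Agilent arrays, 1 pig per array, and the labels gave breed and temperature. The deposited scanner files hold spot intensity values read by the authors with Agilent Feature Extraction 10.10.1.1. The authors also deposited log2 values, quantile-normalized, with a median of 8.17 on each array, and these were used as an alternative. Here the median spot intensity was quantile-normalized without background correction and log2 transformed, and non-uniform spots were set to missing. A probe was kept when 8 or more arrays showed it well above background (44703 of 60305).

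Linear models were fitted with limma 3.58.1 in R 4.3.3, with an intensity trend and Benjamini-Hochberg adjustment over all tested probes at 0.05. The terms were temperature and breed, or the 6 group means for changes within breeds and their interaction. Pen, slaughter day and parents, which the authors modelled, are not in the labels and were left out. The fits treat all pigs as independent, although the study used littermates and housed pigs in shared pens. The SE, intervals and adjusted p-values given here may therefore be too small or too narrow. A gene was represented by its brightest tested probe on average. Genes with values by array were 6 anchors (MKI67, TOP2A, CDK1, CCNB1, PCNA and E2F1) and up to 2 called genes of each role with the largest change, or the gene with the largest change where none was called. The members and all gene lists were chosen with earlier results of these data known. Correlations used 100000 permutations of the arrays within groups, and intervals are 95% intervals. On simulated data 82% of probes changed by 0.5 and 95% of those changed by 1 were recovered for HS minus TN over 44703 probes, with 4.32% of the calls false. The simulated noise was independent between probes, whereas probes such as those of CDK1 and CCNB1 were correlated over the real arrays. These shares therefore need not hold for the real data. The number of arrays limits the precision. Alternatives were other background corrections, scalings, filters, probes and model terms, and each array left out in turn. The promoter motifs were not analysed here.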

Additional observations from a re-analysis of the deposited data

Results flagged for a closer look

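Creole HS replicate 2 was far above the 4 other Creole HS pigs for 7 mitosis genes, by the gap to the nearest pig as a share of the range of the group. Its log2 level was 8.46 for CCNB1 (nearest other pig 7.76), 8.28 for CENPF (7.32), 6.75 for BUB1 (6.19), 9.60 for UBE2C (8.77), 9.01 for TPX2 (8.17), 7.48 for KIF23 (6.74) and 9.73 for BIRC5 (9.15). In all 85 combinations of a gene and a group were examined, chance marks about 1 in 20, and these genes are not independent of each other. Without this pig all 20 genes stayed called lower in HS against TN pigs, and 12 genes in place of 3 were called within Creole.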

How the results depend on the processing

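No paired analysis was possible because the labels give no replicate numbers that the groups share. Of the 12 other settings with all arrays, the red blood cell mean as a covariate changed the main result, with 3 genes called lower (0 of S phase and 3 of mitosis) and 42 probes in all. Without the breed term 3531 probes were called. The count of genes called lower in HS pigs was 18 to 21 when 1 array was left out, with 3 to 6 of S phase (3 without LW TN replicate 3) and 0 to 1 called higher (KIF11 without LW TN replicate 4). MCM3 lost its call in 18 of these 26 fits and CDKN2C in 13. The change turned sign for CDC6 (-0.12 with the mean of all probes), CKS1B (-0.0515 with 75th percentile scaling, -0.0260 with the macrophage mean, and -0.00783 to 0.0453 over the arrays left out), MKI67 (0.0270 with the red blood cell mean) and BUB3 (0.00150 with the macrophage mean), none of them called.

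Calls within breeds depended most on the setting, and the cause was not tested. Within Creole all probes called numbered 0 without a filter, 2 with the gene mean, 3 with slide, 82 with array weights and 0 with either covariate, and genes called lower 6 with normexp, 1 with 75th percentile scaling, 0 without a filter, with the gene mean, with slide or with either covariate, and 8 with array weights. Within F1 the probes numbered 114 without a filter, 4 with slide, 556 with array weights, 0 with the red blood cell mean and 104 with the macrophage mean, and the genes 0 with slide or the red blood cell mean. Within LW the probes numbered 313 with the gene mean, 114 with slide, 1209 with array weights and 1 with the red blood cell mean. Leaving out 1 array gave 0 to 205 probes and 0 to 12 genes in Creole, 0 to 494 probes and 0 to 13 genes in F1, and 112 to 1137 probes in LW. The mitosis median was -0.90 in Creole with 75th percentile scaling and -0.80 in F1 with the filter on all arrays. The interaction gave 0 probes with slide, 2 with array weights and 1 to 4 over the arrays left out. For LW minus Creole 4193 probes were called without the temperature term, genes lower numbered 2 with normexp, slide or array weights, 0 without the temperature term or without probes named by description (added after the data were seen), and 0 to 2 over the arrays left out, and genes higher 2 with the filter on all arrays or slide and 2 to 4 over the arrays left out. F1 against the midpoint of its parental breeds gave 7 probes with the gene mean, 0 with slide, 16 with array weights, 7 with the red blood cell mean and 3 to 50 over the arrays left out. KIF11 was not well above background on 4 of 11 TN arrays and 1 of 15 HS arrays.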
